A study of Mus musculus with 6 samples.

Results

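The cytosolic ribosomal protein genes described here are 88 of 21896 protein-coding mouse genes. They were chosen by symbol alone: Rpl or Rps followed by a digit, or Rplp followed by a digit, without the Rps6k kinase genes and without symbols of pseudogenes. The 88 genes comprise 51 named Rpl (large subunit), 34 named Rps (small subunit) and 3 named Rplp (the acidic stalk of the large subunit). The symbol rule also takes in genes whose names mark a paralog or a protein outside the ribosome, 9 of which are given as a group. Rpl32l, Rpl37rt and Rps23rg1 have such names too but are not among these 9. The rule leaves out 4 genes of ribosomal proteins with other names, such as Rpsa, Fau and Rack1, which are given separately.

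The series is a chromatin immunoprecipitation sequencing (ChIP-seq) study of mouse retina with a rabbit antibody to BMAL1, a transcription factor of the circadian clock. It holds 3 wild-type libraries, called control 1 to 3, and 3 libraries from Bmal1 conditional knockouts, called Bmal1 CKO 1 to 3, all from C57BL/6 mice that had no external treatment and were weaned at postnatal day 20. The labels do not give the Cre driver, the retinal cells that lost the gene, the age or the time of day. Each library has 1 deposited list of peaks, that is, of places where its DNA fragments piled up.

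Each ribosome carries a single copy of nearly every ribosomal protein, so the genes for these proteins are transcribed at high and closely matched rates. They are short genes with compact promoters, transcription of them typically begins within a run of pyrimidines, and the same pyrimidine tract at the 5′ end of their mRNAs places their translation under the control of mTOR. BMAL1 pairs with CLOCK and binds the E-box CACGTG, and in liver the clock has been tied to rhythmic production of ribosomal proteins.

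Start sites were read from a RefSeq promoter table (assembly GRCm38.p6, the coordinates of mm10), which held 68 of the 88 genes. The first 6 sequences, each 150 bases before and 20 bases from the start site, show the starts of 3 genes with high peaks in both long lists (Rps13, Rpl15 and Rpl22l1), of a gene whose start lies inside its annotated span (Rps2) and of 2 retrogenes with no peak (Rpl37rt and Rps27rt). Capitals mark matches, on either strand, among the 150 bases to any of 6 motifs, the E-box and those of ETS factors, YY1, SP1, the TATA box and NRF1, whose letters are given with their counts.
Rps13, chr7:116334171-116334340, minus strand: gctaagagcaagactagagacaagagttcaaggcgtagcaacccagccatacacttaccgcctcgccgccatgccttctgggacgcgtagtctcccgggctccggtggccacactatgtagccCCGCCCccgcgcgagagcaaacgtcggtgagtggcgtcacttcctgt
Rpl15, chr14:18270967-18271136, minus strand: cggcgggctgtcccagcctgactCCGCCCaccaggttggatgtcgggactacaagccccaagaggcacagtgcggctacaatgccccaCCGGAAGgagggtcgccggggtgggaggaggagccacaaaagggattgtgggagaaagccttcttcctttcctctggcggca
Rpl22l1, chr3:28805358-28805527, plus strand: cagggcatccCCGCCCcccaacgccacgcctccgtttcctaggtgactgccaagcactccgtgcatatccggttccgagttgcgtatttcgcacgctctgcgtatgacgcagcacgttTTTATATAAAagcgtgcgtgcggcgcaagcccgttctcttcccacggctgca
Rps2, chr17:24719913-24720082, plus strand: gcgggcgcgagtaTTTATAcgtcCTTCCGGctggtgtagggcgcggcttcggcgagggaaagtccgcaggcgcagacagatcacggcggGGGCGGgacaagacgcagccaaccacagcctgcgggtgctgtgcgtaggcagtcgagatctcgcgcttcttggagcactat
Rpl37rt, chr5:115110249-115110418, minus strand: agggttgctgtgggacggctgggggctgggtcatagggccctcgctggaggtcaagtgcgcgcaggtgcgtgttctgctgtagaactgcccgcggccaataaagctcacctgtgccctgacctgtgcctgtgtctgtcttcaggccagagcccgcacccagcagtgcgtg
Rps27rt, chr9:114982720-114982889, minus strand: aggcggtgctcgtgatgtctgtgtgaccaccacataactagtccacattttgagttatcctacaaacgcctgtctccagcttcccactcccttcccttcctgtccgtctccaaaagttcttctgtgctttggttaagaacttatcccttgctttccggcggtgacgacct
The Rps13 window held an SP1 match, the Rpl15 window an ETS and an SP1 match, the Rpl22l1 window an SP1 match and a TATA box, and the Rps2 window an ETS match, an SP1 match and a TATA box. The windows of Rpl37rt and Rps27rt held none of the 6 motifs.

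The E-box is the sequence that bears most directly on a BMAL1 antibody, and 6 ribosomal protein promoters held it. Each is shown on the gene's own strand with the E-box in capitals.
Rpl34, chr3:130730536-130730565, minus strand: cacctaacttctCACGTGacgttcctaccg
Rps19, chr7:24884781-24884810, plus strand: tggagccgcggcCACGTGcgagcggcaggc
Rpl13a, chr7:45128928-45128957, minus strand: cgctccgaaaccCACGTGacatcccgcccc
Rpl14, chr9:120571337-120571366, plus strand: ccaagctcactgCACGTGtctgaggagaag
Rpl23, chr11:97782425-97782454, minus strand: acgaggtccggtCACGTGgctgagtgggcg
Rpl19, chr11:98026679-98026708, plus strand: tacccagaggacCACGTGaccaaacgccct

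Only control 1 and Bmal1 CKO 2 had long peak lists, of 179475 and 138254 peaks. The other 4 lists held 372 to 1444. The lowest local background among the peaks of a list, solved from the deposited fold and p-values, was used as a stand-in for depth. It was 3.46 and 5.83 fragments per base in the 2 long lists and 0.56 to 2.78 in the other 4, where it rests on few peaks. Library by library, a peak list gives no level of Bmal1 RNA or protein, so the knockout could not be checked from the files. Nothing in the labels ties a library to 1 animal, so the spread between libraries may be partly technical.

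In the long list of each genotype most cytosolic ribosomal protein genes carried a peak at an end, and almost none did in the other lists. An end peak is a peak with its summit no more than 1 kb from an annotated end of the gene, on either side. In control 1, 77 of the 88 genes had one (87.5%), against 69.5% of all protein-coding genes. In Bmal1 CKO 2, 75 of 88 had one (85.2%), against 58.9% of all protein-coding genes. Among protein-coding genes of up to 10 kb, which are closer in size to the ribosomal genes (median length 3180 bp, against 17100 bp over all protein-coding genes), the shares were 56.1% and 44.9%.

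The short lists held a single ribosomal protein gene between them. Control 2 had 0 of 88, beside 0.0594% over all protein-coding genes, and control 3 had 1 of 88 (1.14%, Rps29), again with 0.0594% of all genes. Bmal1 CKO 1 had 0 of 88 (0.343% of all genes) and Bmal1 CKO 3 had 0 of 88 (0.105% of all genes).

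**Figure D1:**
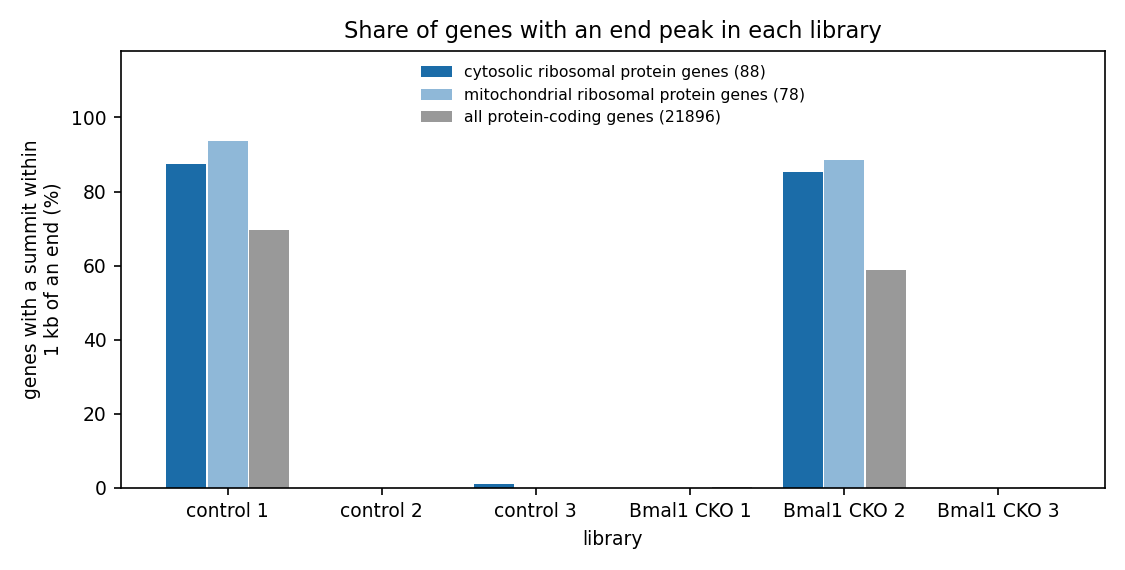
Share of genes (%) with a summit within 1 kb of an annotated end in each of the 6 libraries, for the 88 cytosolic ribosomal protein genes, 78 mitochondrial ribosomal protein genes and all 21896 protein-coding genes. The cytosolic genes reach 87.5% in control 1 and 85.2% in Bmal1 CKO 2, while the other 4 libraries lie at 0 to 1.14%.

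The genotypes did not separate. The mean share of ribosomal protein genes with an end peak was 29.5% ± 50.2 (SD, n = 3) in control and 28.4% ± 49.2 (SD, n = 3) in Bmal1 CKO, a difference (CKO minus control) of -1.14 percentage points that is far below either SD. The groups overlap, each having 1 list near the top and 2 lists at or near 0. Without Bmal1 CKO 2 the difference was -29.5 points, and without control 1 it was 27.8 points, so that its sign followed which of the long lists was present. With the 372 peaks of lowest q-value from each library, Rps29 in control 3 was the only ribosomal protein gene listed in any of the 6.

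How far depth accounts for the empty lists was not tested. By the lowest local background, the long lists were the deepest. Bmal1 CKO 1, at 2.78 fragments per base, held 1444 peaks, and control 1, at 3.46, held 179475. Among the shallower lists, Bmal1 CKO 3 (0.56) held 519 peaks and control 3 (0.852) held 372. When the fragments and background of control 1's 77 peaks were scaled to the depth of the other lists, 0 would have reached the lowest deposited −log10 p of control 2, 5 that of control 3 and 2 that of Bmal1 CKO 3. Scaled to Bmal1 CKO 1, 68 of the 77 would have reached its lowest −log10 p of 5.45. That list held none of them. The 75 peaks of Bmal1 CKO 2 gave 28 by the same scaling to Bmal1 CKO 1 and 0 for the other 3 short lists. These scalings assume the enrichment of the source library, and the count for Bmal1 CKO 1 differed with the source.

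The same genes were mostly listed in both long lists. An end peak in both was found for 72 of 88 ribosomal protein genes (81.8%), against 54.7% of all protein-coding genes. A further 5 genes (5.68%, against 14.8% of all protein-coding genes), all of the Rps series, had one in control 1 only: Rps10, Rps15, Rps18, Rps19bp1 and Rps28. A group of 3 genes had one in Bmal1 CKO 2 only (3.41%, against 4.22%), among them Rpl29. The remaining 8 had none in either (9.09%, against 26.3%), and they were Rpl17, Rpl18, Rpl22, Rpl37rt, Rps2, Rps23rg1, Rps27l and Rps27rt.

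By subunit, control 1 listed an end peak for 45 of 51 large subunit genes (88.2%) and Bmal1 CKO 2 for 47 of 51 (92.2%), with 45 in both (88.2%). Of the small subunit genes, control 1 listed 29 of 34 (85.3%) and Bmal1 CKO 2 listed 25 of 34 (73.5%), with 24 in both (70.6%). The share of small subunit genes with one in control 1 only was 14.7%, near the 14.8% of all protein-coding genes. All 3 stalk genes had one in both. Over all protein-coding genes the shares were 69.5% in control 1, 58.9% in Bmal1 CKO 2 and 54.7% in both. The highest fold per gene, which the authors deposited as summit height relative to local background in that library, had a median of 4.12 for the large subunit and 3.94 for the small subunit in control 1. In Bmal1 CKO 2 the medians were 3.07 and 3.09, so the subunits were alike in level within each list.

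The folds were ordinary for their lists. Over the 77 genes in control 1 the median was 3.97 (quartiles 3.05 and 4.86, range 2.13 to 6.94), beside 3.93 over all protein-coding genes with an end peak and 3.52 over those of up to 10 kb. Over the 75 genes in Bmal1 CKO 2 it was 3.07 (quartiles 2.63 and 3.37, range 2.11 to 5.45), beside 3.10 and 2.92. The median −log10 q was 8.48 in control 1 and 5.79 in Bmal1 CKO 2. Folds are relative to their own library, and with 1 long list per genotype, library and genotype cannot be told apart in the lower values of Bmal1 CKO 2.

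The order of the genes by fold was similar in the 2 long lists. Across the 72 genes listed in both, Pearson's r between the folds was 0.781 and Spearman's rho 0.777. Over all 11971 protein-coding genes listed in both the values were 0.766 and 0.765, so the members were like all genes in this. These are correlations across genes within a pair of libraries, and the genes share the depth and base composition of those libraries. The summits of the 2 lists lay within 250 bp of each other in 46 of the 72 genes, beside 7745 of the 11971. The median separation was 164 bp, beside 150 bp over all such genes, so the members were like all genes in this too.

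**Figure D2:**
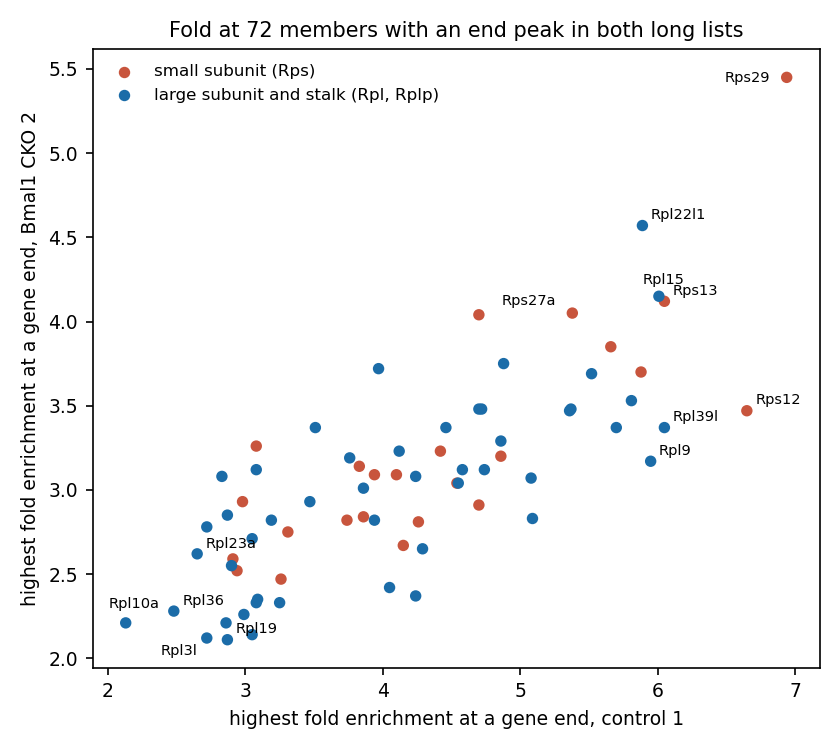
Highest deposited fold enrichment at a gene end in control 1 (x axis) and Bmal1 CKO 2 (y axis), 1 point per gene, for the 72 cytosolic ribosomal protein genes with an end peak in both long lists. Rps29 stands at 6.94 and 5.45, and the 2 lists rank the genes alike (Spearman's rho 0.777).

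The fold of a gene followed its local background more closely than the height of its peak. Stacked fragments per summit ranged from 17 to 48 in control 1 (median 34, quartiles 30 and 38) and from 22 to 53 in Bmal1 CKO 2 (median 37, quartiles 33 and 40). The local background ranged from 3.46 to 16.8 fragments in control 1 and from 5.83 to 18.9 in Bmal1 CKO 2. Across the 77 genes of control 1, Spearman's rho between fold and background was -0.796 and between fold and stacked fragments 0.173. Across the 75 genes of Bmal1 CKO 2 the values were -0.755 and 0.157. Both quantities enter the fold and were solved from it, so these are descriptions of what the fold is made of.

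A pair of genes from the ends of the range shows this. Rpl10a, a large subunit gene on chromosome 17, had the lowest fold in control 1 (2.13) with 37 stacked fragments over a background of 16.8. Rpl39l, a paralog of Rpl39 known from testis, had a fold of 6.05 in the same list with 26 fragments over 3.46, the lowest background of that list. The peak at Rpl10a was thus the taller of the 2 in fragments and the lower in fold.

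**Figure D3:**
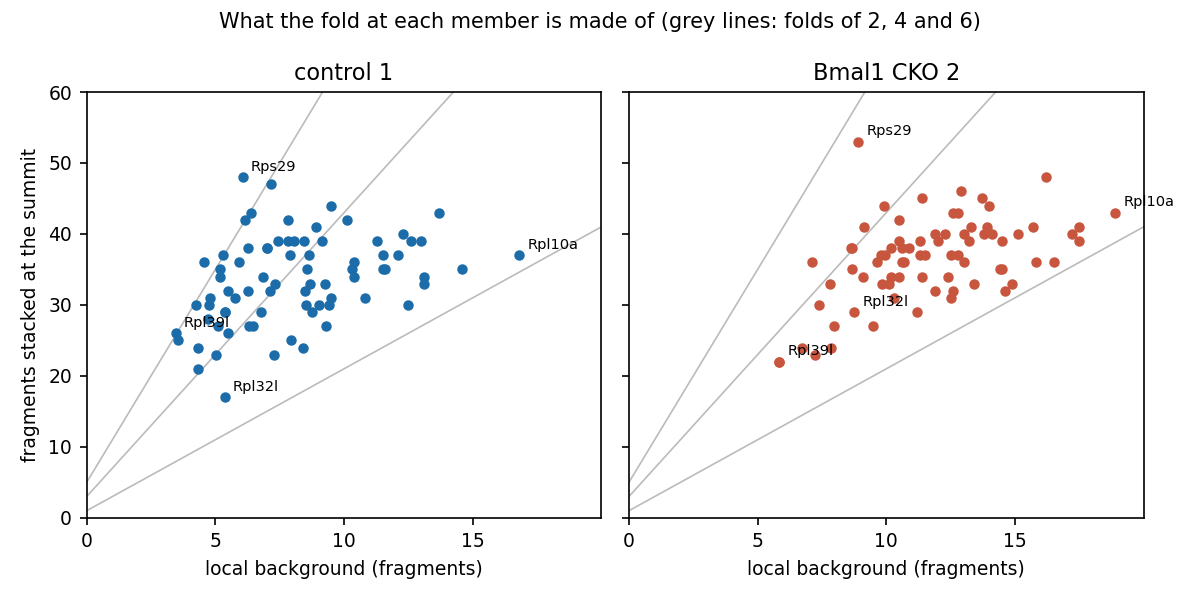
Fragments stacked at the summit (y axis) against local background (x axis, fragments) for the highest-fold end peak of each cytosolic ribosomal protein gene, 77 in control 1 and 75 in Bmal1 CKO 2, with grey lines at folds of 2, 4 and 6. Rpl39l at the left and Rpl10a at the right of the control 1 panel have folds of 6.05 and 2.13, although Rpl10a has more stacked fragments (37 against 26).

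The peaks sat at the starts of the genes. A summit within 1 kb of a listed start site was found for 61 of the 68 genes with one in control 1 (89.7%), against 69.2% of all protein-coding genes with a listed start. The count was 57 of 68 in Bmal1 CKO 2 (83.8%), against 59.7% of all. Where a gene's highest-fold end peak could be placed, it was nearer to the listed start than to the other end in 57 of 61 genes in control 1 (93.4%) and in 51 of 56 in Bmal1 CKO 2 (91.1%), beside 87.5% and 88.8% of all protein-coding genes.

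Those summits lay within 250 bp of the start in 41 of 61 genes in control 1 (67.2%, beside 53.0% of all genes) and in 41 of 56 in Bmal1 CKO 2 (73.2%, beside 53.9%). The median position was 92 bp downstream of the start in control 1 (quartiles -12 and 217, where a negative value is upstream) and 15.5 bp downstream in Bmal1 CKO 2 (quartiles -102 and 141). Over all protein-coding genes the median positions were 96 and 66 bp downstream. In control 1 the summit lay downstream in 44 genes and upstream in 17, and in Bmal1 CKO 2 downstream in 32 and upstream in 24. Summits of all protein-coding genes also lay more often downstream, with 7855 against 4299 in control 1 and 6283 against 4123 in Bmal1 CKO 2. To the nearest annotated end of any kind, the median distance was 177 bp in control 1 (range 3 to 971) and 137 bp in Bmal1 CKO 2 (range 4 to 776), against 248 and 236 bp over all protein-coding genes with an end peak. Over those of up to 10 kb the medians were 272 and 244 bp. The mitochondrial ribosomal protein genes were alike in this, with 72.3% and 74.6% of their summits within 250 bp of a listed start.

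**Figure D4:**
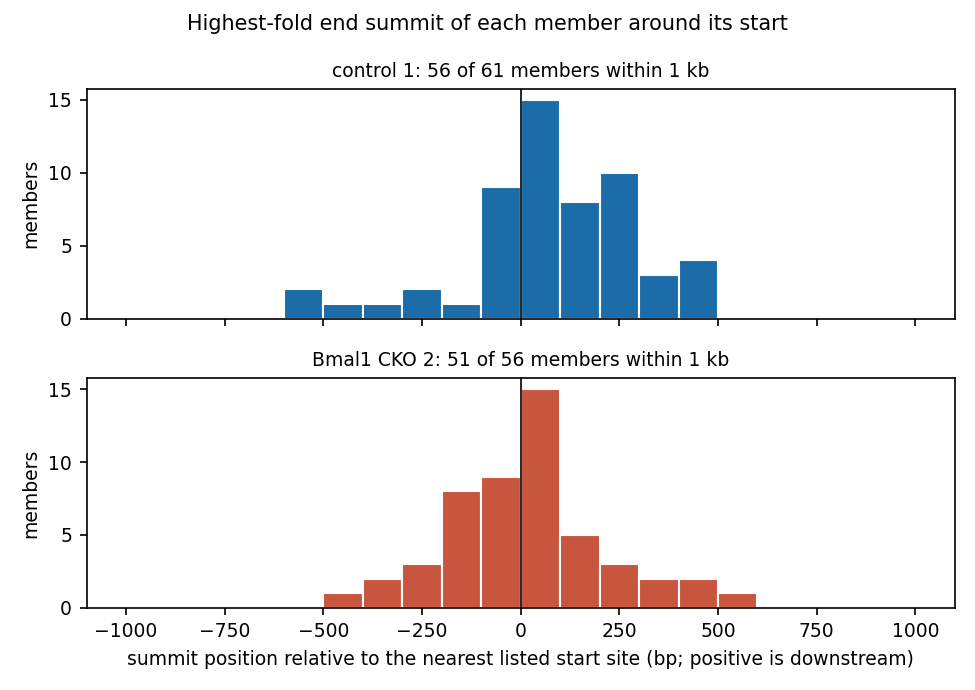
Number of cytosolic ribosomal protein genes (y axis) by the position of the highest-fold end summit relative to the nearest listed start site (x axis, bp, positive downstream, 100 bp bins) in control 1 (top) and Bmal1 CKO 2 (bottom). Summits of 56 of 61 and 51 of 56 genes fall within 1 kb, most of them within 250 bp of the start, and the other 5 in each list lie outside the plot.

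Peaks inside the genes were few, although in Bmal1 CKO 2 their share was close to that of genes of up to 10 kb. Of the 72 genes long enough to hold a summit more than 1 kb from both ends, 10 had one in control 1 (13.9%, against 69.9% of all genes long enough) and 12 in Bmal1 CKO 2 (16.7%, against 58.1%). Among long enough genes of up to 10 kb the shares were 30.8% and 17.9%, and those of the mitochondrial ribosomal protein genes 46.6% and 38.4%. Genes with one in both lists were Rpl17, Rpl19, Rpl22, Rpl32, Rps2, Rps23rg1 and Rps27l. In Rpl19, Rpl22, Rps2 and Rps27l these included, in both lists, a summit near a listed start inside the annotated span. More than 1 end peak was found in 10 of the 77 genes with any in control 1, where 31.3% of all protein-coding genes with an end peak had more than 1. The count was 14 of 75 in Bmal1 CKO 2, beside 29.4%.

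Rps29, which encodes a small zinc-binding protein of the small subunit, had the highest fold of all members in both long lists and was the only one in a short list. The fold at Rps29 reached 6.94 in control 1 (48 fragments over a background of 6.06), 6.70 in control 3 (14 over 1.24) and 5.45 in Bmal1 CKO 2 (53 over 8.90), and it had no end peak in control 2, Bmal1 CKO 1 or Bmal1 CKO 3. Within their lists the folds in control 1 and Bmal1 CKO 2 stood at the 97.0 and 98.6 percentile of all protein-coding genes with an end peak. The genotypes overlap at this gene, with 2 of 3 control lists and 1 of 3 CKO lists holding the peak.

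All 3 Rps29 summits lay inside a neighbouring gene. Rps29 spans chr12:69157722-69159186, and Rn7s1, whose product is the 7SL RNA of the signal recognition particle, spans chr12:69159295-69159593, 109 bp beyond it. The summits at 69159340 (control 1), 69159331 (control 3) and 69159368 (Bmal1 CKO 2) fell 45, 36 and 73 bp into the 299 bp of Rn7s1. The 7SL RNA gene is transcribed by RNA polymerase III and has related copies in the genome. How the authors placed reads that match several places is not given in the sources used here. The signal of Rps29 and that of Rn7s1 cannot be told apart by the distance rule.

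**Figure D5:**
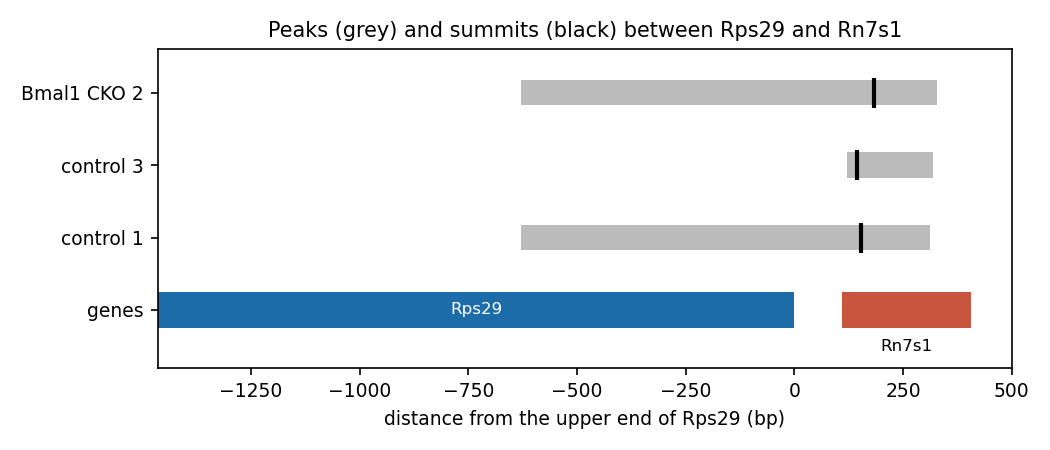
Peaks (grey bars) and summits (black marks) of control 1, control 3 and Bmal1 CKO 2 by distance from the upper annotated end of Rps29 (x axis, bp), with the spans of Rps29 (blue) and Rn7s1 (red) at the bottom. The 3 summits lie 154, 145 and 182 bp beyond Rps29 and 45, 36 and 73 bp into Rn7s1.

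After Rps29, the highest folds in control 1 were those of Rps12 (6.65), Rps13 (6.05), Rpl39l (6.05) and Rpl15 (6.01). In Bmal1 CKO 2 they were those of Rpl22l1 (4.57), Rpl15 (4.15), Rps13 (4.12) and Rps27a (4.05). Rps13 and Rpl15, with Rps29, were thus in the top 5 of both lists.

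Rps13, a small subunit gene, had summits 136 bp and 140 bp downstream of its start in control 1 and Bmal1 CKO 2, which are 4 bp apart in the genome (116334054 and 116334050 on chromosome 7). Rpl15, a large subunit gene, had its summit 237 bp downstream of the start in control 1 and 190 bp upstream in Bmal1 CKO 2, in a promoter region shared with Nkiras1, an inhibitor of NF-kappa-B signalling. Rpl22l1, the paralog of Rpl22, had its summits 86 and 128 bp upstream of the start, with a fold of 5.89 in control 1. Rps12 had its summits 59 and 48 bp upstream of its start, with a fold of 3.47 in Bmal1 CKO 2. Rps27a, which encodes a ribosomal protein fused to ubiquitin, had a fold of 5.38 in control 1, and its peak also lay at an end of Clhc1.

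The lowest folds in control 1 were those of Rpl10a (2.13), Rps10 (2.29) and Rps18 (2.31), and in Bmal1 CKO 2 those of Rpl19 (2.11), Rpl3l (2.12) and Rpl12 (2.14). Several of these peaks lay at neighbouring genes. The summit credited to Rps18 lay 833 bp beyond its far end, at an end of B3galt4. The Rpl19 peak lay at an end of Cacnb1, a calcium channel subunit gene and at -4540 and -4514 bp from the nearest listed Rpl19 start, a negative position being upstream. Peaks at the Rpl19 start itself had folds of 2.85 (303 bp downstream) and 2.32 (150 bp downstream) and counted as intragenic, since the annotated span of the gene reaches farther upstream. The Rps10 summit in control 1, 93 bp upstream of its start, fell within a long non-coding RNA gene, Gm15420.

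Shared peaks of this kind were counted for the members only, and the matching shares over all protein-coding genes were not computed. The shares given earlier for any end peak are an unlike measure. The highest-fold end peak also lay at an end of another protein-coding gene in 19 of 77 ribosomal genes in control 1 and 18 of 75 in Bmal1 CKO 2. The summit lay in an annotated non-coding gene in 2 genes of each list (Rps29 in both, Rps10 in control 1, and Rps20, within the long non-coding RNA gene Gm32823, in Bmal1 CKO 2). An end peak of its own, neither shared nor within a non-coding gene, was found for 57 of the 88 genes in control 1 (64.8%) and for 59 in Bmal1 CKO 2 (67.0%). Rps29 in control 3 was lost under this stricter count, which left 0 genes in all 4 short lists.

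The 3 stalk genes, whose acidic proteins recruit translation factors to the ribosome, gave mid-range to low values. Rplp0 had a fold of 3.08 in control 1 and 3.12 in Bmal1 CKO 2, with summits 59 and 21 bp upstream of its start. Rplp1 had folds of 3.94 and 2.82. Rplp2 had folds of 3.05 and 2.71 with summits 3 and 138 bp downstream of its start, and its peak also lay at an end of Pidd1.

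Control 1 listed an end peak for 7 of the 9 grouped genes with names of a paralog or a protein outside the ribosome. Bmal1 CKO 2 listed 6 of these 9. The shares over all protein-coding genes were 69.5% and 58.9%. Rpl10l and Rpl39l, paralogs known mainly from testis, had folds of 5.70 and 6.05 in control 1 and 3.37 each in Bmal1 CKO 2. In Bmal1 CKO 2 each had 22 stacked fragments over 5.83, the lowest background of that list. Rpl36al, a paralog of Rpl36a, had folds of 4.88 and 3.75 at a promoter region shared with Mgat2. The lower pair of this group was Rpl7l1, with folds of 2.90 and 2.55, and Rpl3l, the paralog of Rpl3 known from muscle, with 2.72 and 2.12.

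Rpl3l had no summit within 1 kb of a listed start. Its end peak lay 581 and 333 bp beyond the other end, at an end of Msrb1. Rps19bp1, which encodes a protein that binds Rps19 and is not part of the ribosome, had an end peak of fold 3.25 in control 1, 96 bp downstream of its start, and none in Bmal1 CKO 2. Without these 9 genes the end peak count was 70 of 79 in control 1 and 69 of 79 in Bmal1 CKO 2. Without Rpl32l, Rpl37rt and Rps23rg1 as well, it was 69 of 76 and 68 of 76.

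Of the 8 genes with no end peak in either long list, 4 had a peak at a start site that lies inside the annotated span. Rps27l, a paralog of Rps27 known as a p53 target, has listed starts at 66946086 and 66946413 on the plus strand. Its summit in control 1 (66946331, fold 5.07) lay 82 bp upstream of the second start. In Bmal1 CKO 2 the summit (66946096, fold 4.17) lay 10 bp downstream of the first. Rpl22 had summits 125 bp (fold 3.29) and 7 bp (fold 2.47) downstream of an internal start. Rps2 had a summit 183 bp upstream of its start in control 1 (fold 2.56) and 132 bp upstream in Bmal1 CKO 2 (fold 3.76, with 62 stacked fragments). Rpl18 had a summit 124 bp downstream of its start in control 1 (fold 2.51) and no peak within 10 kb of the gene in Bmal1 CKO 2. In all 4 the starts concerned lie more than 1 kb from both annotated ends.

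The other 4 differed among themselves. Rpl17, which has no listed start, had a summit 1879 bp inside the gene in control 1 with a fold of 5.81 and 39 stacked fragments, and summits 1655 and 2039 bp inside in Bmal1 CKO 2 with folds of 2.58 and 2.42. Rps23rg1, a retrogene of Rps23, had summits 1148 and 1143 bp from its start with folds of 3.75 and 3.15, just outside the window. The retrogenes Rpl37rt and Rps27rt had no peak within the gene in either list. The nearest summits to Rps27rt lay 3308 bp from it in control 1 and 3201 bp in Bmal1 CKO 2, and those to Rpl37rt 5605 and 6915 bp.

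By start site the picture was close to that by ends. Of the 68 genes with a listed start, 6 had no summit within 1 kb of it in either long list (27.3% of all protein-coding genes with a listed start had none): Rpl3l, Rpl10, Rpl37rt, Rps18, Rps23rg1 and Rps27rt. Rpl10, an X-linked gene whose protein joins the large subunit late in its assembly, had end peaks in both lists, but its highest summits lay 1348 and 2145 bp downstream of its listed start, with folds of 3.97 and 3.72. A start-site peak in control 1 only was found for 5 genes, namely Rpl18, Rps10, Rps15, Rps19bp1 and Rps28 (12.9% of all genes). It was found in Bmal1 CKO 2 only for 1 gene, Rpl41 (3.45% of all genes). In Bmal1 CKO 2, Rps15 and Rps18 had no peak within 10 kb. The window's edge decided Rpl29, whose summit in control 1 lay 1036 bp from an end (fold 3.93) and in Bmal1 CKO 2 773 bp from it (fold 3.19). Just inside the edge in control 1 was Rpl10 at 971 bp.

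Some members with well-known roles, picked by role after their values had been seen, gave further levels. Rpl5 and Rpl11, which bind MDM2 and so link ribosome assembly to p53, had folds of 4.72 and 3.51 in control 1 and 3.48 and 3.37 in Bmal1 CKO 2. Rps6, the substrate of the S6 kinases, had folds of 5.88 and 3.70, 480 and 406 bp downstream of its start. Rps19, the gene most often mutated in Diamond-Blackfan anaemia, had folds of 2.91 and 2.59. Rps6 thus stood above the upper quartile of the ribosomal genes in both lists, and Rps19 below the lower quartile in both.

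The 6 E-box genes were no exception among the members. CACGTG was found in 6 of 68 ribosomal promoters (8.82%) and in 8.91% of 17491 genes with a listed promoter, in a window from 250 bp before to 50 bp from the start, on either strand. All 6 (Rpl13a, Rpl14, Rpl19, Rpl23, Rpl34 and Rps19) had an end peak in both long lists. Fold had a median of 3.64 over them in control 1 and of 2.62 in Bmal1 CKO 2, below the medians of all ribosomal genes (3.97 and 3.07). For Rpl19 that value is the Cacnb1-end peak.

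The nearest summit to each E-box lay 115 to 534 bp from it in control 1 and 73 to 557 bp in Bmal1 CKO 2. The nearest in control 1 was at Rpl13a (115 bp, fold 2.99), and the nearest in Bmal1 CKO 2 were at Rpl14 (73 bp, fold 2.65) and Rpl23 (77 bp, fold 3.37). In Rpl23 the E-box printed above begins 3 bp upstream of the start site, and in Rpl19 19 bp upstream of it. None of the 6 had an end peak in a short list. Letters outside these windows were not examined.

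The other motifs are given as counts without a test. The ETS motif CCGGAAG was found in 25 of 68 (36.8%, against 12.9% of all promoters), the YY1 motif AAGATGG in 10 (14.7%, against 7.18%) and the NRF1 motif GCGCATG in 8 (11.8%, against 5.39%). The SP1 motif GGGCGG was found in 40 (58.8%, against 49.2%) and TATAAA in 8 (11.8%, against 14.8%). A run of 6 or more pyrimidines over the start base was found in 22 (32.4%, against 7.35%). Motifs were counted separately, so a promoter can hold several. The median fold of the genes holding a motif and an end peak ranged in control 1 from 3.50 (pyrimidine run) to 4.13 (NRF1), with 3.60 for TATAAA, 3.83 for YY1 and 4.05 for both ETS and SP1. It ranged in Bmal1 CKO 2 from 2.81 (YY1) to 3.29 (NRF1), with 2.82 for the pyrimidine run, 3.04 for SP1, 3.09 for ETS and 3.12 for TATAAA.

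The 4 ribosomal protein genes with other names behaved like the members, with an end peak in both long lists and none in the short ones. Rpsa, which encodes a small subunit protein also known as the laminin receptor, had folds of 4.77 in control 1 and 2.47 in Bmal1 CKO 2. Rack1, a scaffold on the small subunit, had 3.76 and 3.22. Fau, which encodes a fusion of a ribosomal protein with a ubiquitin-like protein, had 3.09 and 2.48.

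Other genes of the translation machinery showed end peaks at like rates, beside 69.5% of all protein-coding genes in control 1 and 58.9% in Bmal1 CKO 2. Of 78 mitochondrial ribosomal protein genes, 73 had one in control 1 (93.6%) and 69 in Bmal1 CKO 2 (88.5%), with 68 in both, and their median folds were 4.41 and 3.21. Of 16 translation genes (elongation and initiation factors and genes regulated with them), 14 had one in control 1 and 16 in Bmal1 CKO 2. Of 16 ribosome assembly genes, 15 had one in both long lists, and the exception in each was Ubtf, a factor of RNA polymerase I. None of the genes of these 3 lists had an end peak in control 2, control 3 or Bmal1 CKO 3, and 1 had one in Bmal1 CKO 1.

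That gene was Eef2, the elongation factor that moves the ribosome along the mRNA. It had a summit at 81182248 on chromosome 10 in Bmal1 CKO 1 (fold 4.27) and at 81182249 in Bmal1 CKO 2 (fold 2.44), 261 and 260 bp from an end, and no end peak in any of the 3 control lists. Npm1, a nucleolar chaperone, also had an end peak in Bmal1 CKO 2 (fold 4.59) and none in control 1. Its summit lay 926 bp from an end, near the edge of the window. An end peak in Bmal1 CKO 2 and not in control 1 was found for 2 of the 16 translation genes (12.5%), against 4.22% of all protein-coding genes. The difference between genotypes at Eef2 and Npm1 was not tested. Bmal1 CKO 3 listed neither, and Bmal1 CKO 1 did not list Npm1.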

How the data were processed

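Peak lists of the 6 libraries were used as the authors deposited them, 1 list per library. Per the submitters' processing notes, Trim Galore, Bowtie2, MACS2 and mm10 were used. Versions, parameters, duplicate handling and the use of input DNA were not stated in the labels. The authors deposited, for each peak, a fold enrichment (a ratio) at the summit, its −log10 p-value, its −log10 q-value, a score equal to 10 times the −log10 q rounded down, and the summit position. Each list was matched to its library through the deposited record.

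Gene spans and 68 of 88 start sites came from RefSeq tables of assembly GRCm38.p6. Summits were set against both gene ends (1 kb window) and start sites in Python 3.11.15 (pandas 2.3.3, numpy 2.4.6, scipy 1.17.1, matplotlib 3.10.9). Fragments at the summit and background were solved from fold (pseudocount 1) and Poisson p-value, and came out whole within 0.02 in 100% of peaks. The scripts were tested on simulated data.

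The members, gene lists and alternatives were chosen with earlier results of these data known, so no test over members was run, and 3 libraries against 3 could not go below an exact permutation p of 0.1. Named genes are members with no end peak in both long lists, with one in a short list, with the 5 highest or 3 lowest folds of a long list or with intragenic peaks in both, plus paralogs and stalk genes. Other members, such as those with an E-box, with start-site or shared peaks or with well-known roles, were named after their values were seen. Alternatives changed the window, peak threshold, reference point, member list and libraries. The values of some single genes are not reported here.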

Additional observations from a re-analysis of the deposited data

How the results depend on the processing

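Over 14 results, 80 of 89 alternative values kept within the spread or within 1.5 times the reported value. That tally says little about robustness. It takes in the counts of 0 in control 2, Bmal1 CKO 1 and Bmal1 CKO 3, which stricter settings could not lower. It also takes in every genotype difference, from -29.5 to 27.8 points, beside SDs of 50.2 and 49.2. With −log10 q of at least 5, genes with an end peak fell from 75 to 45 in Bmal1 CKO 2 and from 72 to 43 in both long lists, and genes with an intragenic peak from 10 to 6 in control 1 and from 12 to 3 in Bmal1 CKO 2. With a fold of at least 3 the end peak counts were 41 in Bmal1 CKO 2 and 39 in both lists. Intragenic peaks more than 500 bp from both ends were found in 16 genes in control 1. In control 3 the single gene, Rps29, became 0 with start sites only, where Rps29 has no entry, and 0 without shared peaks and peaks in non-coding genes. The latter alternative, and the one without Rps23rg1, Rpl37rt and Rpl32l, were chosen after seeing the data.

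In control 1 the end peak count ranged from 57 to 83. The difference in share between genotypes was 1.14 points with a 500 bp window, -8.33 with the stricter q-value, -0.568 without the 2 long lists and -0.379 with equal numbers of peaks. Leaving out each replicate in turn gave -29.5 to 27.8 points. No paired analysis was possible because the shares come from no test, and the replicate numbers have no stated meaning across genotypes. Only 1 list per genotype was long enough to hold most genes, so the statements on single members rest on control 1 and Bmal1 CKO 2, except for the Rps29 peak of control 3.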

Other observations

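Pseudogenes named for cytosolic ribosomal protein genes also carried end peaks in both long lists. Of 306 such pseudogenes, control 1 listed 136 with an end peak (44.4%) and Bmal1 CKO 2 listed 120 (39.2%). Over all 10622 annotated pseudogenes the shares were 38.5% and 32.8%. No test was run on these shares.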
